A study of Mus musculus with 8 samples.

Results

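Cytoplasmic ribosomal protein genes were followed from meiosis into the haploid phase of mouse spermatogenesis, in pachytene spermatocytes (PS), which are cells in meiotic prophase, and in round spermatids (RS), their haploid products. The genes were taken from the tables of RNA by symbol: *Rpl*, *Rps* or *Rplp* followed by a number and, at most, the letters a, x, y or l, leaving out *Rpl10* and *Rpl10l*. This gave 78 of 23343 genes, listed as 86 isoform rows whose values were summed per gene. RNA-seq came from adult C57BL/6 testes of *Rnf8*- and *Scml2*-dKO mice, which lack a ubiquitin ligase and a germline Polycomb protein, with 2 samples of PS and 2 of RS. H3K27ac ChIP-seq, for a histone acetylation found at active promoters and enhancers, came from adult C57BL/6 wild-type testes, again with 2 samples of each stage. No wild-type RNA was analysed here, so every RNA value carries both deletions and the RNA and H3K27ac values come from different genotypes. Both stages were isolated by sedimentation through BSA, for the dKO on a scale that allowed PS and RS from 1 mouse.

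Cytoplasmic ribosomes are built in the nucleolus from ribosomal RNA and a set of proteins present at 1 copy each, apart from the stalk proteins P1 and P2. Each protein is usually made from 1 expressed gene among many intronless pseudogenes. Their mRNAs are among the most abundant of any cell and as a rule begin with a pyrimidine stretch, the terminal oligopyrimidine (TOP) tract, through which growth signalling controls their translation. In male meiosis the X chromosome is silenced, and several X-linked ribosomal protein genes have copies elsewhere in the genome that are known from the testis, of which *Rpl39l* and *Rpl36al* are examples.

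The 4 RNA libraries held 9655405 to 12289694 reads on genes. In the 2 PS libraries *Rnf8* had 93 and 110 reads and *Scml2* 40 and 92, and in the 2 RS libraries *Rnf8* had 61 and 50 reads and *Scml2* 44 and 98. Reads from outside a deleted part remain in such mutants, and the sources used here do not give the position of the reads, so these counts do not check the genotype. Summed markers of the stages separated the libraries. The 8 spermatid genes (such as *Prm1* and *Tnp1*) summed to 544 and 888 RPKM (reads per kilobase of transcript, scaled to library size) in PS against 13082 and 13920 in RS, and the 8 spermatocyte genes summed to 755 and 671 against 244 and 281. *Piwil1* alone gave 286 and 326 of this sum in PS and 9.91 and 17.6 in RS, whereas *Sycp1* and *Meiob* overlapped between stages and *Syce3* was at 64.8 and 52.0 in PS and 87.4 and 67.7 in RS. Markers of other cells moved too. The 5 Leydig genes, none of them at 0 in any library, summed to 727 and 546 RPKM in PS against 68.0 and 42.4 in RS, led by *Insl3*, a Leydig cell hormone, at 593, 450, 60.0 and 35.8. The 3 leukocyte genes summed to 0.925 and 0.954 RPKM in PS against 10.7 and 8.86 in RS. Sertoli genes (6) summed to between 2.36 and 5.72, peritubular genes (3) to between 1.81 and 3.32, spermatogonial genes (6) to between 26.0 and 49.6, and red blood cell genes (3) to at most 0.369. The part of Leydig and leukocyte RNA in the differences below was not tested.

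Ribosomal protein mRNA took a smaller share of the RNA in RS than in PS. The genes held 1.12% and 1.01% of the reads in PS, and 0.780% and 0.711% in RS. Both RS libraries lay below both PS libraries. The mean was 1.07% ± 0.0752 (SD, n = 2) in PS and 0.746% ± 0.0493 (SD, n = 2) in RS, a difference of -0.320 percentage points (RS minus PS), with a two-sided exact permutation p of 0.333, the smallest that 2 samples against 2 can give. Genes of the large subunit went from a mean of 0.666% to 0.454% of reads and those of the small subunit from 0.399% to 0.291%. In bulk samples a share cannot tell fewer transcripts per cell from more RNA of other genes, nor from fewer cells of a type. The median gene stood at 164 and 138 RPKM in PS and at 106 and 95.2 RPKM in RS, and between 44 and 60 of the 78 genes were in the top 5% of all genes in each library.

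**Figure D1:**
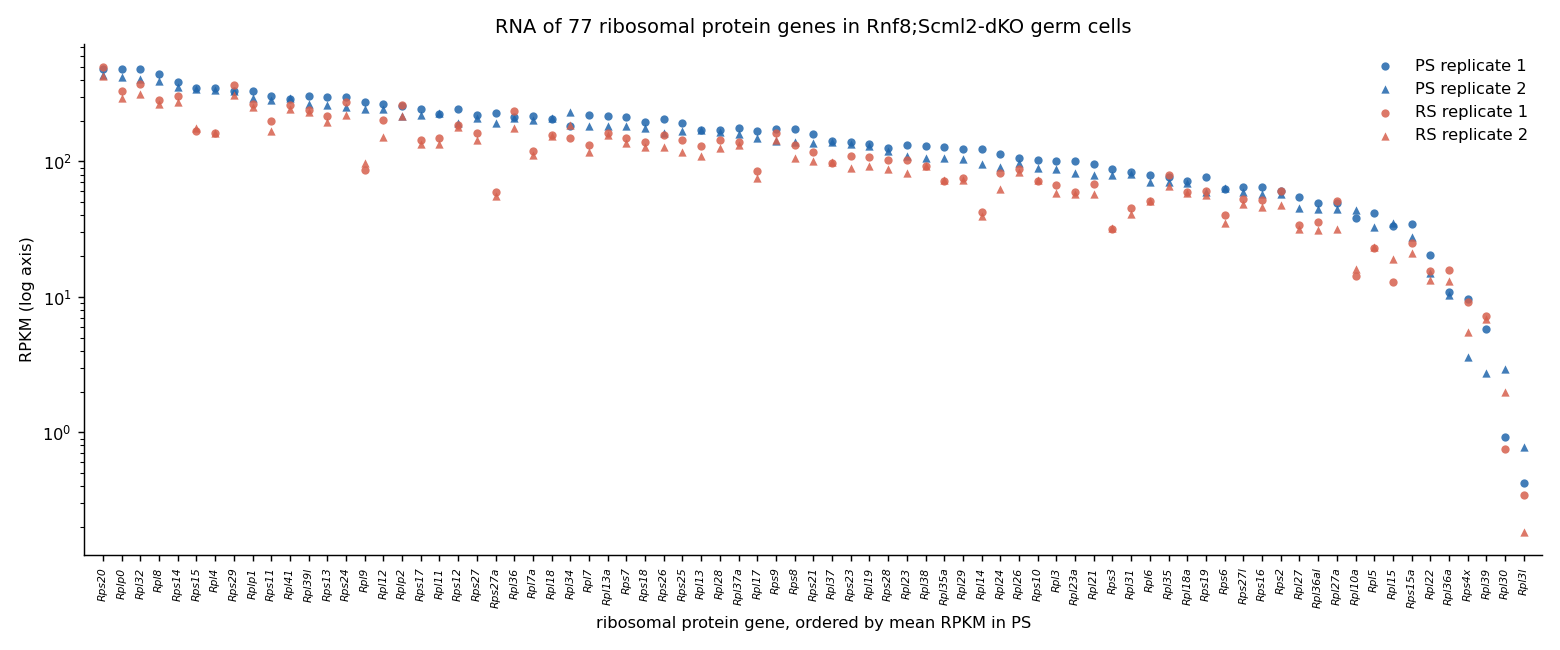
RPKM (log axis) of 77 of the 78 ribosomal protein genes in the 2 PS libraries (blue) and the 2 RS libraries (red) of Rnf8;Scml2-dKO mice, ordered by the mean in PS. Most genes lie between 20 and 500 RPKM, with red points mostly below blue ones, and Rpl3l, Rpl30, Rpl39 and Rps4x form the low end.

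Gene by gene, the RNA fell in RS for a minority past the threshold, rose past it for none, and leaned downward for nearly all. Of the 77 genes with enough reads to test, 19 were called lower in RS (edgeR's quasi-likelihood test, Benjamini-Hochberg adjusted p under 0.05 over all 14647 genes and at least 1.5-fold), which is 24.7%, beside 27.6% of all genes tested. None was called higher, beside 30.4% of all genes, and none would be at an adjusted p under 0.05 with no fold limit, where 41 were lower, beside 32.1% of all genes lower and 32.5% higher under the same rule. The median log2 RS/PS was -0.41 over the 77 genes and 0.01 over all genes. In 61 of the 77, 79.2%, both RS libraries were below both PS libraries in RPKM, which held for 42.7% of all genes, and in 2 both were above, which held for 40.9% of all genes. The samples of a stage are labelled as replicates, and the p-values rest on the spread between 2 libraries of a stage, pooled across genes.

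The number of calls and the size of the median moved with the count filter, and both also moved with 1 library left out. With genes of at least 50 reads in 2 libraries, 75 members were tested, 11 were called lower and the median was -0.29. That filter left fewer genes to test. Over all genes left, 3227 were called lower, against 4049 before, and the median was -0.02. No share of all genes is given for that filter, so these counts do not show whether the members changed more than genes at large. Without RS replicate 2 the median was -0.19 over the members and -0.01 over all genes. Of the 19 calls, 11 were made under all 12 alternatives that refitted the data (*Rps27a*, *Rpl9*, *Rpl10a*, *Rpl14*, *Rps3*, *Rpl15*, *Rpl4*, *Rps15*, *Rpl17*, *Rpl31* and *Rpl7a*).

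**Figure D2:**
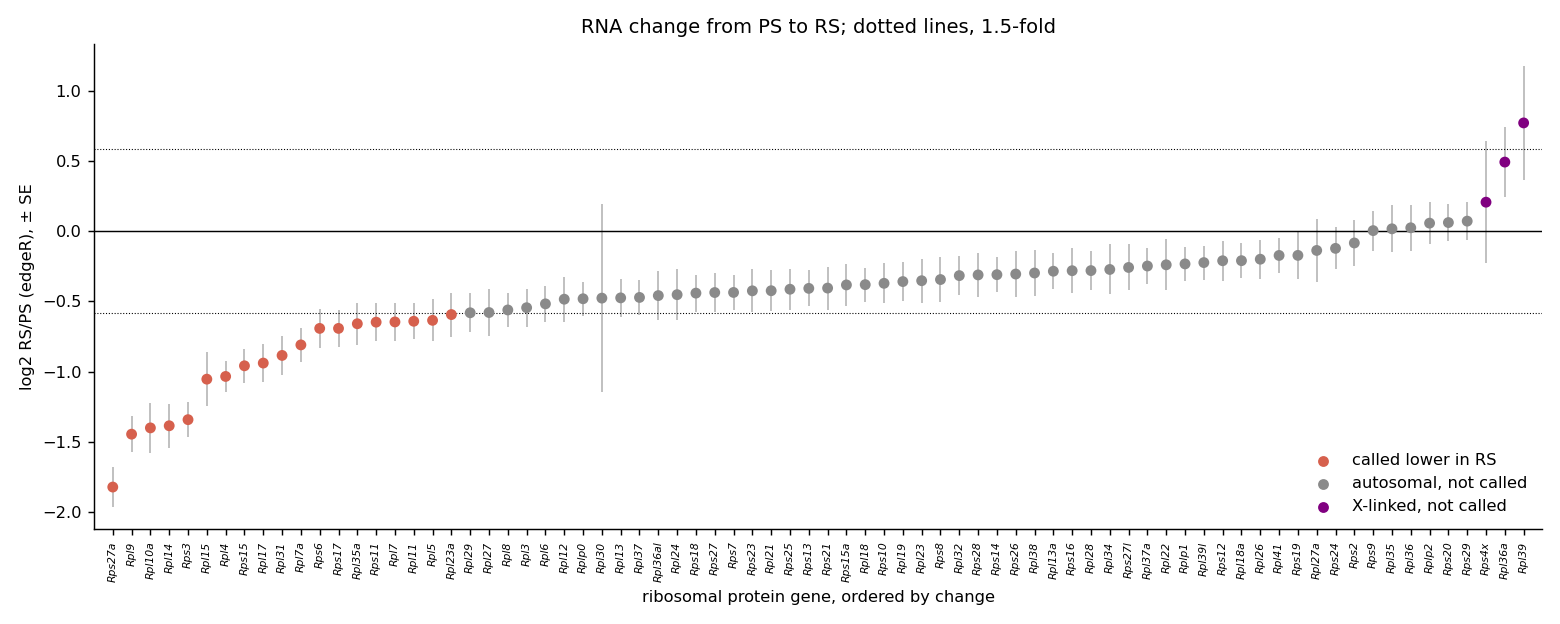
Log2 RS/PS of 76 of the 77 ribosomal protein genes tested, with a standard error derived from edgeR's F statistic, ordered by size, with dotted lines at 1.5-fold. The 19 genes called lower (red) form the left end, down to -1.82 for Rps27a, most of the others lie between -0.58 and 0.07 (grey), and the 3 X-linked genes (purple) are at the right end without being called.

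*Rps27a*, which encodes ubiquitin fused to a small subunit protein and so feeds both the ubiquitin pool and the ribosome, fell most. It was at 230 and 192 RPKM in PS and at 59.9 and 56.0 in RS, with no overlap, a log2 RS/PS of -1.82 ± 0.14 (SE) and an edgeR adjusted p of 1.3e-05.

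After it, 6 genes had the lowest log2 RS/PS, 5 of them of the large subunit. *Rpl9* was at 273 and 243 RPKM in PS and at 87.1 and 97.1 in RS, a log2 RS/PS of -1.44 ± 0.13 (SE). *Rpl10a*, a protein of the stalk next to the site where spent tRNA leaves, was at 38.4 and 43.8 RPKM in PS and at 14.4 and 16.0 in RS, a log2 RS/PS of -1.40 ± 0.18 (SE). *Rpl14* was at 124 and 95.4 RPKM in PS and at 42.0 and 39.3 in RS, a log2 RS/PS of -1.38 ± 0.16 (SE). In all 3 genes both RS libraries lay below both PS libraries. *Rps3*, which lines the channel where mRNA enters the small subunit, was at 88.2 and 79.9 RPKM in PS and at 32.0 and 32.5 in RS, a log2 RS/PS of -1.34 ± 0.13 (SE). *Rpl15* was at 33.1 and 34.9 RPKM in PS and at 13.0 and 19.0 in RS, a log2 RS/PS of -1.05 ± 0.19 (SE). *Rpl4*, which reaches into the tunnel through which the new protein leaves, was at 350 and 335 RPKM in PS and at 162 and 163 in RS, a log2 RS/PS of -1.03 ± 0.11 (SE). The edgeR adjusted p-values of these 6 genes ran from 2.8e-05 for *Rpl9* to 0.0016 for *Rpl15*.

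At the other end, the 6 highest log2 RS/PS among the members not named for another reason lay near 0, and none was called. *Rps20*, a protein of the head of the small subunit, had the highest mean RPKM of all members, at 478 and 432 in PS and 496 and 425 in RS, and its libraries overlapped. *Rps29*, also of the head, was at 333 and 332 RPKM in PS and at 369 and 310 in RS. *Rpl36* was at 212 and 207 RPKM in PS and at 237 and 177 in RS. In each of these 3 genes RS replicate 1 was the highest library and RS replicate 2 the lowest. *Rpl35*, next to the tunnel exit, was at 76.1 and 70.9 RPKM in PS and at 78.9 and 65.4 in RS. *Rps9* was at 172 and 141 RPKM in PS and at 161 and 144 in RS, and *Rps2*, which with *Rps3* lines the mRNA entry, was at 60.6 and 57.9 in PS and at 60.7 and 47.7 in RS. Over these 6 genes the log2 RS/PS ran from -0.08 for *Rps2* to 0.07 for *Rps29*, with SE between 0.13 and 0.17 and edgeR adjusted p-values between 0.66 and 0.98, and the sign of 4 of them (*Rps2*, *Rps9*, *Rpl35* and *Rpl36*) turned with the scaling, the count filter or the library left out.

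The stalk of the large subunit, which recruits elongation factors, is made of 1 *Rplp0* protein and pairs of *Rplp1* and *Rplp2* proteins. *Rplp0* was at 479 and 422 RPKM in PS and at 332 and 295 in RS, with no overlap, a log2 RS/PS of -0.48 ± 0.12 (SE) and an edgeR adjusted p of 0.0082, under the fold limit. *Rplp1* was at 331 and 295 RPKM in PS and at 265 and 252 in RS (log2 RS/PS -0.23 ± 0.12, SE, edgeR adjusted p 0.13). *Rplp2* was at 257 and 217 RPKM in PS and at 262 and 216 in RS (log2 RS/PS 0.06 ± 0.15, SE, edgeR adjusted p 0.75), and its sign turned without PS replicate 2 or without RS replicate 1. The RS and PS values thus stood apart for *Rplp0* and *Rplp1* and overlapped for *Rplp2*, and whether the 3 changes differed was not tested. The other members with the highest mean RPKM were *Rpl32*, at 482 and 404 in PS and 374 and 316 in RS, and *Rpl8*, at 439 and 394 in PS and 284 and 263 in RS. *Rpl8* had a log2 RS/PS of -0.56 ± 0.12 (SE) and an edgeR adjusted p of 0.0033, just under the fold limit, and it passed that limit with library totals in place of TMM, in both limma fits and without PS replicate 2.

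The 3 X-linked members were at the low end of the levels and at the upper end of the changes. *Rpl36a* was at 10.9 and 10.3 RPKM in PS and at 15.8 and 13.2 in RS, from 56 to 108 reads per library. *Rpl39*, whose protein lies in the exit tunnel, was at 5.79 and 2.74 RPKM in PS and at 7.26 and 6.90 in RS, from 12 to 40 reads. In both genes the RS libraries were above the PS libraries. *Rps4x* was at 9.62 and 3.60 RPKM in PS and at 9.14 and 5.52 in RS, and its stages overlapped. The log2 RS/PS was 0.49 ± 0.25 (SE) for *Rpl36a*, 0.77 ± 0.40 for *Rpl39* and 0.21 ± 0.43 for *Rps4x*, with edgeR adjusted p-values of 0.11, 0.13 and 0.69. None was called. *Rps4x* had 96 and 35 reads in the 2 PS libraries and 112 and 57 in the 2 RS libraries, and in RPKM its 2 PS libraries lay farther apart than the means of the stages. Without PS replicate 1, *Rpl39* and *Rps4x* were called higher, with log2 RS/PS of 1.36 and 1.03 (edgeR adjusted p 0.0144 and 0.0206). Without PS replicate 2 they were at 0.38 and -0.29 and not called.

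Copies outside the X chromosome held most of the RNA of these pairs. *Rpl39l* on chromosome 16 was at 303 and 264 RPKM in PS and at 240 and 232 in RS, which was 98.1% and 99.0% of the summed RPKM of the pair in PS and 97.1% and 97.1% in RS. *Rpl36al* on chromosome 12 was at 49.7 and 44.6 RPKM in PS and at 35.5 and 31.0 in RS, and took 82.0% and 81.2% of its pair in PS and 69.2% and 70.2% in RS. In both pairs the share of the autosomal copy was lower in both RS libraries than in both PS libraries. Neither copy was called (log2 RS/PS -0.22 ± 0.12, SE, edgeR adjusted p 0.13 for *Rpl39l*, and -0.46 ± 0.18, SE, edgeR adjusted p 0.048 for *Rpl36al*, under the fold limit). For *Rps4x*, the tables list a copy on chromosome 6 as *Rps4y2*, which RefSeq now names *Rps4l* and classes as a transcribed pseudogene, outside the name rule. It was at 94.9 and 92.6 RPKM in PS and at 101 and 91.0 in RS (log2 RS/PS 0.07 ± 0.13, SE, edgeR adjusted p 0.64). This copy was thus above *Rps4x* in every library.

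In the autosomal pairs the usual gene led. *Rps27* was at 220 and 209 RPKM in PS and at 162 and 143 in RS, and *Rps27l*, a close copy known as a target of p53, was at 65.1 and 59.0 in PS and at 52.5 and 48.1 in RS. The copy took 22.8% and 22.0% of the pair in PS and 24.5% and 25.1% in RS. *Rpl3*, a protein near the catalytic centre, was at 100 and 88.3 RPKM in PS and at 66.6 and 58.9 in RS. *Rpl3l*, which is known from striated muscle, had 4 and 8 reads in PS and 4 and 2 in RS, at most 0.780 RPKM, and was the 1 member that did not pass the count filter. *Rpl30* was also near the floor, with 6 and 18 reads in PS and 6 and 13 in RS. Reads were aligned with unique positions only, so reads shared with a pseudogene or a copy were dropped, and low levels of single members, and shares within a pair, are uncertain to that extent.

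**Figure D3:**
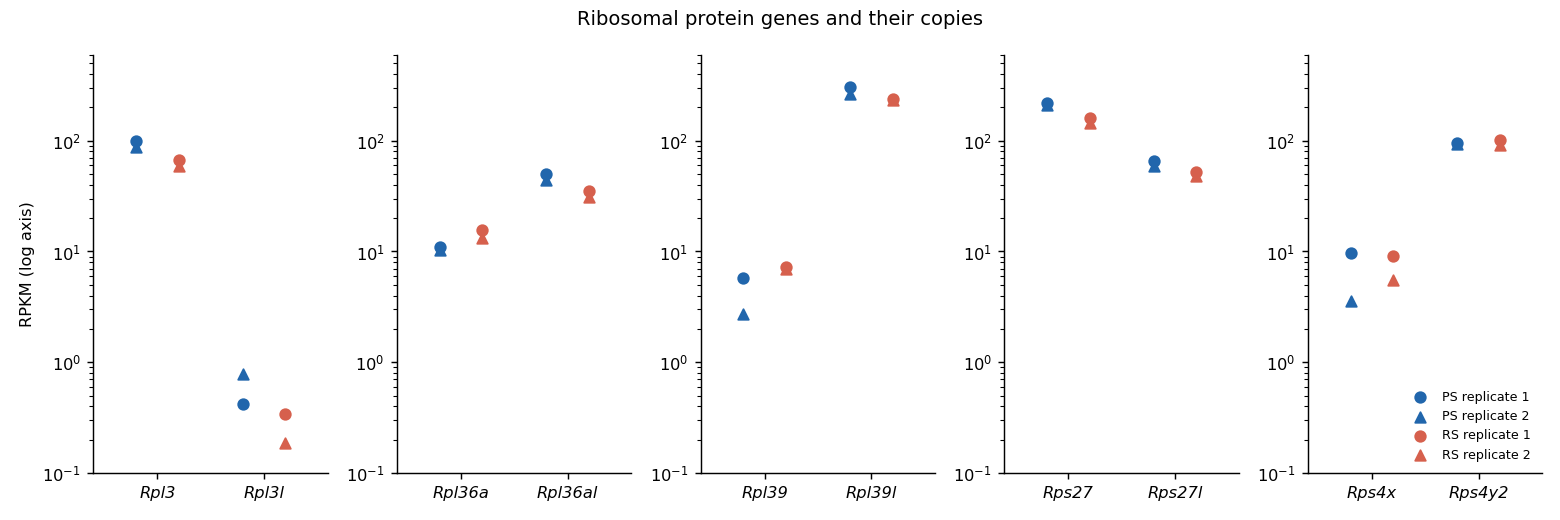
RPKM (log axis) of 5 ribosomal protein genes and their copies in the 2 PS (blue) and 2 RS (red) libraries; circles are replicate 1 and triangles replicate 2. The autosomal copies Rpl36al, Rpl39l and Rps4y2 lie above their X-linked relatives in every library, whereas Rpl3l and Rps27l lie below theirs.

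The start sites show what these genes share in sequence. A 300-base RefSeq promoter (GRCm38.p6, 250 bases before the start and 50 from it on) was on hand for 58 of the 78 genes. In the windows below, which run from 40 bases before the annotated start to 20 bases from it on, capitals mark the longest run of C and T that touches the 10 bases on either side of the start, where a TOP tract would lie. The first 6 are the genes with the lowest log2 RS/PS that have an entry, the next 4 are genes that held their level, and the last 2 are *Rpl39l* and the X-linked *Rpl36a*.
Rpl14, chr9:120571477-120571536, plus strand: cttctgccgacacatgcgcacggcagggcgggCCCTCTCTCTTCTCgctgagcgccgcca
Rpl15, chr14:18270967-18271026, minus strand: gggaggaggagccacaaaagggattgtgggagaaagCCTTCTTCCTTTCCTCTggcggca
Rpl4, chr9:64173347-64173406, plus strand: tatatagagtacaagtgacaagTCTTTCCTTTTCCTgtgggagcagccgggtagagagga
Rpl9, chr5:65391412-65391471, minus strand: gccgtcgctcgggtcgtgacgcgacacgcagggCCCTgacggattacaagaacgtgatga
Rpl10a, chr17:28328431-28328490, plus strand: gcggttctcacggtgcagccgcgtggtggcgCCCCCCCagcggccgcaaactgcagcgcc
Rps3, chr7:99483690-99483749, minus strand: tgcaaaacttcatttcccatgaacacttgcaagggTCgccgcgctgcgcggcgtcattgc
Rpl35, chr2:39005112-39005171, minus strand: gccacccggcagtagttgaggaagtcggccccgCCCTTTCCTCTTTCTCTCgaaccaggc
Rplp2, chr7:141447611-141447670, plus strand: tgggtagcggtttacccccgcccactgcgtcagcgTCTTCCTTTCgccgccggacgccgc
Rps9, chr7:3704001-3704060, plus strand: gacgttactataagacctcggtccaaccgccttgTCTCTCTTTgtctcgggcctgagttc
Rps2, chr17:24720023-24720082, plus strand: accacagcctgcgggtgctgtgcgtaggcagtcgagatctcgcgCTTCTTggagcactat
Rpl39l, chr16:10170188-10170247, plus strand: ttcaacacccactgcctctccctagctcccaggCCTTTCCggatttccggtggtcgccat
Rpl36a, chrX:134585614-134585673, plus strand: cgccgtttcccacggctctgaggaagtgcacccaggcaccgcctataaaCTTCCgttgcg

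*Rpl14*, *Rpl15*, *Rpl35*, *Rplp2* and *Rps9* carried a run that spans the start, of 14, 17, 18, 10 and 9 bases, and *Rpl4* one of 14 bases that ends 5 bases before it. *Rpl9*, *Rps3* and *Rpl36a* had runs of 4, 2 and 5 bases. Genes called lower and genes not called were found with and without a long run. Runs of at least 6 bases were present in 34 of 58 members, 58.6%, and in 29.2% of all 32851 promoters of the table, with medians of 7 and 4 bases. Over the 57 members with a promoter and a test, the correlation of run length with log2 RS/PS was 0.022 by Spearman's rho and -0.040 by Pearson's r, given as a description across genes measured in the same libraries. The median log2 RS/PS was -0.38 in the 34 genes with such a run and -0.41 in the 23 without, with 7 and 6 genes called lower.

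Motifs were read on both strands of the same 300 bases. The ETS motif CCGGAAG was found in 24 of the 58 promoters, 41.4%, beside 8.86% of all promoters. The palindrome CTCGCGAG was found in 6 members, 10.3%, beside 0.919%. The letters of the CRE core, TGACGT, were in 11 members, 19.0%, beside 7.51%, and those of the SP1 site, GGGCGG, in 33, 56.9%, beside 35.7%. All 4 were more frequent among the members than over the table. The YY1 core GATGGC was in 12 members, 20.7%, beside 14.1%, TATAAA in 5, 8.62%, beside 13.6%, and the MYB motif TAACNG in 7, 12.1%, beside 23.3%. Each count is of promoters with a match, whatever the number of matches in them. A match describes the window and is not a bound site.

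H3K27ac was present at nearly every member in wild-type cells of both stages. The peak lists, called in each sample on its own, held 133 and 157 intervals named for or within 2 kb of a member in PS, and 201 and 177 in RS, of 41095 and 49434, and 74919 and 45863, in all. An interval lay within 2 kb of a start in all 4 samples for 75 of the 78 genes, 96.2%, beside 48.8% of all genes. The strongest summit lay at a median of 215 to 268.5 bp downstream of a start within 2 kb in the 4 samples. For genes with several starts, such as *Rpl22*, this was not always the nearest start. Its fold enrichment over background, as the lists give it, had a median of 19.8 and 20.8 in PS and of 17.5 and 12.8 in RS over members with a summit. The files give no read totals, and the background constants of the 4 samples, 1.43, 0.824, 1.46 and 0.723 fragments, were alike for samples of the same replicate number rather than of the same stage.

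The 3 genes without an interval in all 4 samples were *Rps4x*, *Rpl39* and *Rpl3l*, of which the first and second are X-linked. At *Rps4x* the fold enrichment was 4.53 and 4.38 in PS, with no summit in either RS sample. *Rpl39* was at 5.35 and 7.13 in PS, and in RS it had no summit in replicate 1 and one of 5.22 in replicate 2. *Rpl3l* had a summit only in RS replicate 1, at 2.85. These are the 3 weakest of the 78 genes, and a list holds only what passed its caller's threshold.

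Between stages, H3K27ac at the members leaned downward in RS, as it did over all genes. On log2(1 + fold enrichment), the median difference (RS minus PS) was -0.33 over the 77 members tested and -0.43 over all 13643 genes with a peak in at least 2 samples. With each sample centred on its own median, the medians were 0.08 for the members and -0.02 for all genes, so that the downward lean of the members was not larger than that of genes at large. The limma test called 8 members lower, 10.4%, beside 15.9% of all genes, and 1 higher, beside 5.23%. After centring it called 5 lower, beside 12.7% of all genes, and 1 higher, beside 13.9%, and the share of higher among all calls went from 24.8% to 52.3%. Without RS replicate 1, 32 of 77 members were called lower, beside 48.9% of all genes, and without PS replicate 2, 1 of 76 was, beside 4.61%.

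*Rpl39l* showed a fall that did not hang on the scale. Its fold enrichment was 23.5 and 25.2 in PS and 8.14 and 6.39 in RS, a difference of -1.62 ± 0.19 (SE) on log2(1 + fold enrichment) with a limma adjusted p of 0.016, and of -1.21 after centring (limma adjusted p 0.0020), and it was called under every alternative run. Its RNA in the dKO, by contrast, was not called. *Rpl36a* was at 11.5 and 15.9 in PS and at 4.48 and 4.06 in RS, a difference of -1.47 ± 0.26 (SE, limma adjusted p 0.029), and of -1.05 after centring (limma adjusted p 0.017), lost when summits needed a -log10 p of at least 5 and without PS replicate 2. *Rps4x* had a difference of -2.45 ± 0.30 (SE, limma adjusted p 0.016), a size set by the 1 added to absent summits, and lost its call without RS replicate 2. *Rpl39* had a difference of -1.53 ± 0.94 (SE, limma adjusted p 0.27) and was called only without RS replicate 2. All 3 X-linked members thus had negative H3K27ac differences, 2 of them called, beside positive RNA changes in the dKO, none called and that of *Rps4x* of unstable sign, and the genotypes differ between the assays.

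*Rps27a*, the member whose RNA fell most, was also called for H3K27ac, at 34.6 and 38.9 in PS and at 20.8 and 15.1 in RS, a difference of -1.01 ± 0.20 (SE, limma adjusted p 0.037), and of -0.60 after centring (limma adjusted p 0.0070). Other members called lower were *Rpl37a*, *Rps15* and *Rpl15*, with differences between -0.82 and -0.67, none of them called after centring. *Rps2* was the 1 member called higher. It was at 23.0 and 23.6 in PS and at 37.8 and 34.8 in RS, a difference of 0.62 ± 0.14 (SE, limma adjusted p 0.044), and had the highest mean fold enrichment of all members. Its strongest summit lay at -329 and -466 bp from the start in PS and at -1732 and -1350 bp in RS (negative, upstream), and within 1 kb of the start the difference was 0.07 (limma adjusted p 0.81), so the higher values in RS belong to a more distant summit of the same wide interval. The call was also lost with the pileup over background, with the replicate block, and without PS replicate 1, PS replicate 2 or RS replicate 1, with differences of 0.56 to 0.69. The next highest means were those of *Rpl13a*, at 32.5 and 38.4 in PS and 26.9 and 20.9 in RS, and of *Rpl30*, at 32.5 and 36.2 in PS and 28.1 and 18.0 in RS. *Rpl30* thus combined one of the strongest acetylation signals with one of the lowest read counts.

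The remaining genes with the highest differences were *Rpl7*, *Rps3* and *Rpl24*, at 0.13, 0.12 and 0.10, none called. *Rps3* and *Rpl7* were among the genes whose RNA fell. At *Rps3* the fold enrichment was 15.6 and 17.5 in PS, and 20.8 and 15.7 in RS, with overlapping stages. Over 77 members, the RNA change correlated with the H3K27ac change at r = -0.25 (Pearson) and rho = -0.12 (Spearman), and over the 74 autosomal ones at 0.0055 and -0.011. Within PS, log2(RPKM + 1) and H3K27ac had an r of 0.36 and a rho of 0.21, and within RS 0.30 and 0.025. These are descriptions across genes that share their libraries, and the assays come from different genotypes.

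**Figure D4:**
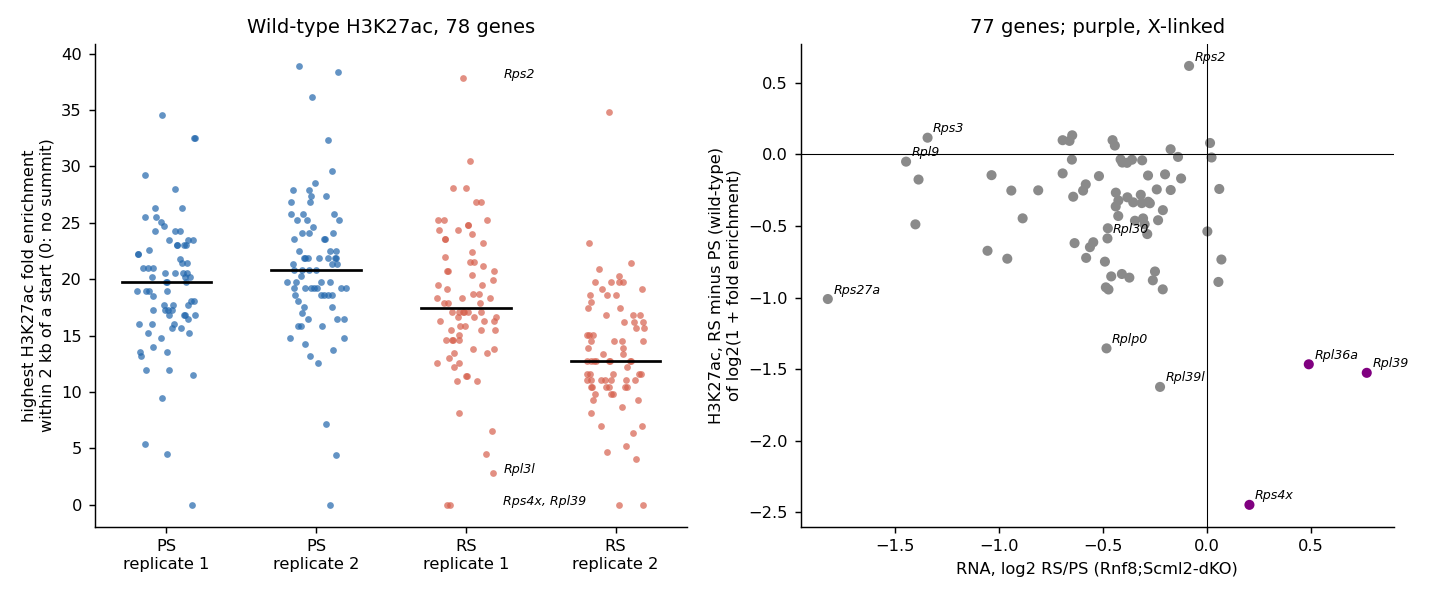
Left, highest H3K27ac fold enrichment within 2 kb of a start for the 78 genes in each wild-type sample (points; bar, median of genes with a summit, from 20.8 in PS replicate 2 to 12.8 in RS replicate 2; 0, no summit). Right, RNA change in Rnf8;Scml2-dKO cells against H3K27ac change in wild-type cells for 77 genes, with the X-linked genes (purple) low in H3K27ac and right of 0 in RNA.

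Other genes of ribosome production, taken from chosen lists, were set beside the members. Of 7 further ribosomal proteins found under other names, 2 fell, 1 rose and 4 were not called. These are shares of 28.6% lower and 14.3% higher, beside 27.6% and 30.4% of all genes. *Gnb2l1*, the scaffold RACK1 on the small subunit, fell from 158 and 135 RPKM to 47.0 and 51.0 (log2 RS/PS -1.54 ± 0.13, SE, edgeR adjusted p 2.2e-05). *Rpl7l1*, a copy of *Rpl7*, fell from 19.4 and 13.6 RPKM to 6.64 and 6.94. Of 17 tested genes listed as elongation factors or other TOP mRNAs, 3 fell, 4 rose and 10 were not called. These are shares of 17.6% and 23.5%, beside 27.6% and 30.4% of all genes. *Eef1d*, an exchange factor subunit for the elongation factor that brings tRNA, rose from 55.1 and 61.8 RPKM to 319 and 294 (log2 RS/PS 2.68 ± 0.14, SE, edgeR adjusted p 3.6e-06), and *Eef1g*, of the same complex, rose from 124 and 111 to 189 and 184. *Eef1b2*, a further subunit of it, fell from 44.2 and 42.7 to 22.3 and 21.9, and *Eef1e1* fell from 9.63 and 6.50 to 3.65 and 3.60. The exchange complex subunits *Eef1d*, *Eef1g* and *Eef1b2* therefore moved in both directions.

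Of 63 ribosome assembly factors, 25 fell, 4 rose and 34 were not called, with a median log2 RS/PS of -0.43. The shares were 39.7% lower and 6.35% higher, beside 27.6% and 30.4% of all genes, whose median was 0.01. *Rrs1*, needed to place the large subunit's small RNA, fell from 15.6 and 14.7 RPKM to 2.44 and 2.24, and *Gnl2*, a GTPase of large subunit assembly, fell from 60.6 and 52.5 to 13.6 and 17.1. *Nop14*, of small subunit assembly, rose from 34.5 and 36.5 to 64.8 and 64.6, and *Utp14a*, an X-linked factor of the same path, from 0.830 and 0.407 to 1.35 and 1.47. Of 14 genes of RNA polymerase I and its factors, 8 (57.1%) fell and none rose, with a median of -0.73. Those that fell included *Taf1b* (from 52.9 and 39.8 RPKM to 13.8 and 14.9) and *Cd3eap* (from 4.86 and 3.88 to 1.52 and 1.28). Of 76 mitochondrial ribosomal proteins, 44 fell, 3 rose and 29 were not called, with a median of -0.73. *Mrpl45* fell from 31.7 and 26.3 to 4.06 and 5.41 and *Mrpl27* from 17.7 and 13.4 to 2.35 and 3.37, whereas *Mrps36* rose from 0.328 and 0.884 to 4.89 and 2.26 and *Mrpl32* from 18.4 and 17.2 to 36.2 and 25.5. The share called lower was thus 57.9% of the mitochondrial and 24.7% of the cytoplasmic ribosomal proteins, beside 27.6% of all genes, and whether the lists differ was not tested.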

How the data were processed

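dKO RNA-seq samples and wild-type H3K27ac ChIP-seq samples (ChIPmentation), 2 of each stage, were grouped by labelled assay, stage and genotype. Per the labels and the methods, the authors amplified polyA RNA (NuGEN Ovation), aligned it to mm10 with STAR (2.4.2a in the submitters' processing notes), kept unique alignments with at most 2 mismatches, and split reads over RefSeq isoforms by expectation-maximization; the deposited counts are not normalized, and the deposited RPKM are scaled by the authors for length and library size. Whether strand was used in counting is not given in the sources used here. For ChIP-seq the authors used Bowtie (1.1.1 in the notes) and MACS2 (2.1.0.20140616 in the notes; the paper gives other versions of both). The deposited lists give each summit's pileup signal, its fold enrichment (a ratio to 1 background constant per sample), and -log10 p-value and q-value; the depth behind them is unknown.

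Rows were summed per gene. edgeR 4.0.16 (TMM, quasi-likelihood) tested genes with at least 10 counts in 2 samples. The SE of an RNA change was derived as its absolute log2 value divided by the square root of edgeR's F statistic. limma 3.58.1 tested log2(1 + fold enrichment) of the highest summit within 2 kb of a start, for genes with a peak in at least 2 samples. Calls needed a Benjamini-Hochberg adjusted p under 0.05 and a 1.5-fold change. Alternatives used DESeq2 1.42.0, other scaling, filters, windows and thresholds, a replicate block and leaving out each library. Python 3.11.15 and R 4.3.3 were used, and the scripts were tested on simulated data.

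Named genes were *Rplp0*, *Rplp1*, *Rplp2*, *Rps27a*, X-linked members, pairs with a copy, the 6 highest and 6 lowest changes among the other members, the 4 highest mean RPKM and members under the filter. For H3K27ac they were members without an interval in all samples, the 4 highest and 4 lowest differences and the 3 highest means, and for the other lists the 2 highest and 2 lowest calls. Others, such as *Rpl30*, *Rps4y2* and the further called members, were named after their values were seen. The members and lists were chosen with earlier results of these data known. Results for 2 genes are not reported here by name, 1 of them a member that is left out of the plots by gene.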

Additional observations from a re-analysis of the deposited data

How the results depend on the processing

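For RNA, 19 members were called lower and 0 higher. When genes needed at least 50 reads in 2 libraries, which also changed the TMM factors, 11 members were called lower and 1 higher (*Rpl36a*). The median log2 RS/PS was then -0.29. Over all genes, fewer of which pass that filter, lower calls went from 4049 to 3227 and higher calls from 4448 to 3534. With no fold threshold 41 members were lower and 0 higher, beside 4696 of all genes lower and 4754 higher. With DESeq2, other scaling, no count filter and limma on RPKM the lower calls stayed between 18 and 23 and none was higher. Beside them, 3634 to 4256 of all genes were called lower and 3482 to 4812 higher. The median of the members stayed between -0.45 and -0.40. Leaving out 1 library gave 11 to 22 lower, 0 to 2 higher, a median of -0.43 to -0.19 and a difference of the read share of -0.37 to -0.27 percentage points. As a share of summed RPKM the difference was -1.15 percentage points. For H3K27ac, 8 members were called lower and 1 higher. Median-centring gave 5 lower and turned the median difference from -0.33 to 0.079, the 1 kb window and the pileup over background gave 0 higher, and leaving out 1 sample gave 1 to 32 lower, 0 to 1 higher and a median of -0.54 to -0.15. An interval in all samples was found for 74 to 76 members under the windows, gene names, p thresholds and samples tried.

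The replicate numbers are shared by PS and RS, but no source says that they mark a mouse, and the correlation of deviations between same-numbered libraries was 0.22 for RNA and 0.0023 for H3K27ac. With the replicate block the RNA calls were 19 lower and 0 higher, beside 4134 and 4589 of all genes, with a median of -0.41. The read share then differed by -0.32 percentage points, and the H3K27ac calls were 5 lower and 0 higher with a median of -0.33.

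Among genes named singly, those near 0 turned sign. *Rps9* was at -0.042 with library totals, -0.0057 without the count filter, and -0.035 in limma with either 1 or 0.1 added. *Rpl35* was at -0.028 with library totals and -0.032 in limma (-0.033 with 0.1 added), *Rpl36* at -0.021 with library totals and -0.034 in limma (-0.035 with 0.1 added), and *Rps2* at 0.037 with at least 50 reads. Leaving out 1 library gave -0.087 to 0.19 for *Rps9*, -0.040 to 0.25 for *Rpl35*, -0.11 to 0.32 for *Rpl36*, -0.18 to 0.18 for *Rps2*, -0.011 to 0.29 for *Rplp2*, -0.29 to 1.03 for *Rps4x*, and for H3K27ac -0.16 to 0.36 for *Rpl24* and -0.075 to 0.31 for *Rps3*. Of 311 RNA comparisons of named genes with an alternative, 20 turned sign, 10 gained a call and none lost one, and of 108 for H3K27ac, 3 turned sign, 3 gained and 9 lost a call, 6 of the last for *Rps2*. With 2 samples a stage, p-values rest on a spread pooled across genes, and single values cannot reach an exact permutation p below 0.333. *Rpl3l* and *Rpl30*, with at most 18 reads in any library, are limited by their few reads, and the reason for the low number was not tested.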
